A study of Mus musculus with 16 samples.

Results

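Collagens, laminin chains, integrin chains and 5 matrix glycoproteins (Tnc, Fn1, Sparc, Nid1 and Hspg2) were followed across mouse embryonic stem (ES) cell lines and livers. Members were chosen by gene symbol alone: a symbol that starts with Col and a digit, Lama, Lamb or Lamc and a digit, or Itga or Itgb, or 1 of the 5 glycoproteins. The array, an Affymetrix U74Av2, held 95 such probe sets for 64 genes, out of 8252 genes named by a single symbol. Each gene is reported by the probe set with the highest mean signal. The 64 genes were 8 basement membrane collagens, 8 fibrillar collagens, 15 other collagens, 9 laminin chains, 5 glycoproteins, 12 integrin alpha chains and 7 integrin beta chains.

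The 16 arrays formed 6 groups. ESVJ is the +/+ parental line of a line labelled Abca1 +/-, heterozygous for a cholesterol and phospholipid transporter, and E14 is the +/+ control line for a line labelled Cdk4 +/-, heterozygous for a cyclin-dependent kinase of the G1 phase. Each ES group held 3 arrays. ESVJ and Abca1 +/- cells were grown on irradiated embryonic fibroblasts, separated from them and kept on gelatin for about 2 days before RNA isolation with Trizol and RNeasy. E14 and Cdk4 +/- cells were feeder-independent and their RNA was isolated with RNeasy. Line of origin, feeders and RNA isolation therefore cannot be told apart between these pairs, and each genotype is 1 cell line. The livers, 2 labelled +/+ and 2 labelled Abca1 +/-, came from mice whose background mixed C57BL6/J with 129/SvJ and whose age is not given. No label says that samples of a group were separate cultures, so p-values measure the spread between these samples, which may be technical in the ES groups.

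Collagens and laminins are trimers, and most are secreted. Type IV collagen chains and laminins assemble into the sheet-like basement membrane, which perlecan (Hspg2) and nidogen link together, while fibrillar collagens form the tensile fibres of connective tissue. Integrins are alpha-beta heterodimers that bind these proteins outside the cell and the actin cytoskeleton inside it. In the early embryo the first basement membranes are laid down by the cells around the pluripotent epiblast, and ES cells attach to laminins through integrins that contain the beta1 chain. In liver, most matrix comes from stellate cells, portal fibroblasts and endothelium, and the sinusoids lack a continuous basement membrane.

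Signals are MAS5 values, each array brought to a 2% trimmed mean of 500. Differences are on the log2(signal + 32) scale, which understates the change of dim genes. They were tested with limma over every probe set whose mean signal was at least 100 across the arrays of the fit, with Benjamini-Hochberg adjusted p under 0.05 as the threshold. Of the 64 genes, 36 were tested among ES lines, 35 between livers and 38 between +/+ livers and +/+ ES lines. Genes tested are not the whole family: a gene that passed the filter only through the group where it was high had to differ. The 28 genes left out among ES lines had a highest group mean between 8.68 and 171, with a median of 60.9, and only Col3a1, Itgal and Lamb3 reached 100 in any ES group. Nearest to the filter, the mean over the ES arrays was 94.9 for Col3a1, 91.1 for Col12a1 and 87.1 for Lama4 on the lower side, and 105.8 for Tnc, 117.8 for Itgax and 120.5 for Col11a1 on the upper side. Levels of different genes come from different probes and are not compared.

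Across arrays the median signal ran from 126 to 170. The first liver labelled Abca1 +/- stood apart in RNA quality, with a 3′ to 5′ signal ratio of 8.24 for actin and 4.10 for Gapdh, against at most 2.14 and 1.19 on any other array. Of the 2 probe sets for Cdk4, one fell in the Cdk4 +/- line, from 5716 ± 188 to 3678 ± 209 (SD, n = 3, adjusted p = 0.00436), and the other was at 1731 ± 361 and 1049 ± 202 (SD, n = 3, adjusted p = 0.104). No probe set for Abca1 passed the threshold between the Abca1 groups. In the liver its probe sets moved in opposite directions, from 314 to 627 and from 217 to 101 (adjusted p = 0.191 and 0.366). The array thus gave no check of the Abca1 labels. ES cell markers summed to between 33980 and 64540 in ES arrays and to at most 848 in livers, and 10 hepatocyte markers to at least 206900 in livers and at most 899 in ES arrays.

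The promoters of Col4a1 and Col4a2 are shown because these chains assemble into the main type IV collagen trimer, their genes adjoin head to head and both were higher in the feeder-independent lines. Of the 64 genes, 43 had a promoter window in the RefSeq set used (GRCm38.p6), which runs from 250 bases before to 50 bases after a gene's start. The Col4a1 window is chr8:11312777-11313076 on the minus strand and the Col4a2 window is chr8:11312555-11312854 on the plus strand, so that they share 78 bases. Capitals mark matches, on either strand, to the CCAAT box (CCAAT) and the GC box (GGGCGG).
Col4a1: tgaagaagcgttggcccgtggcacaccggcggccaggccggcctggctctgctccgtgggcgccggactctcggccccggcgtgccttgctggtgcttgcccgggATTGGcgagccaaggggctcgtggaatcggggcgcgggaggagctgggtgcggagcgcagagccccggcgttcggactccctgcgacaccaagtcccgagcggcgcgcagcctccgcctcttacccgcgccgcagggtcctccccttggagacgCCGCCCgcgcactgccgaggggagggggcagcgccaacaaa
Col4a2: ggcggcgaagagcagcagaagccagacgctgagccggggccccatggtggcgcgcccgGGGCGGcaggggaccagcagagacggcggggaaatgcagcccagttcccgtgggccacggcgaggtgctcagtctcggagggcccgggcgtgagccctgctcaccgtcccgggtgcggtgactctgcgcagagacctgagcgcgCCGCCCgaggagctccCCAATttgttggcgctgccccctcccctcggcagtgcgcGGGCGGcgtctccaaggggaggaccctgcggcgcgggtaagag
Each window held 1 CCAAT match, and the windows held 1 and 3 GC box matches. The CCAAT letters occurred in 26.5% of 49 member windows and in 37.4% of all 32851 windows, and the GC box letters in 59.2% and 35.7%. A TATA box (TATAAA) occurred in 14.3% and 13.6%, and an AP-1 site (TGANTCA) in 6.1% and 7.8%; a match is a description of letters, not a binding site. Besides this pair, Col3a1 and Col5a2, Col4a3 and Col4a4, Col6a1 and Col6a2, Col9a1 and Col19a1, and Itgam and Itgax adjoined in the genome.

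**Figure D1:**
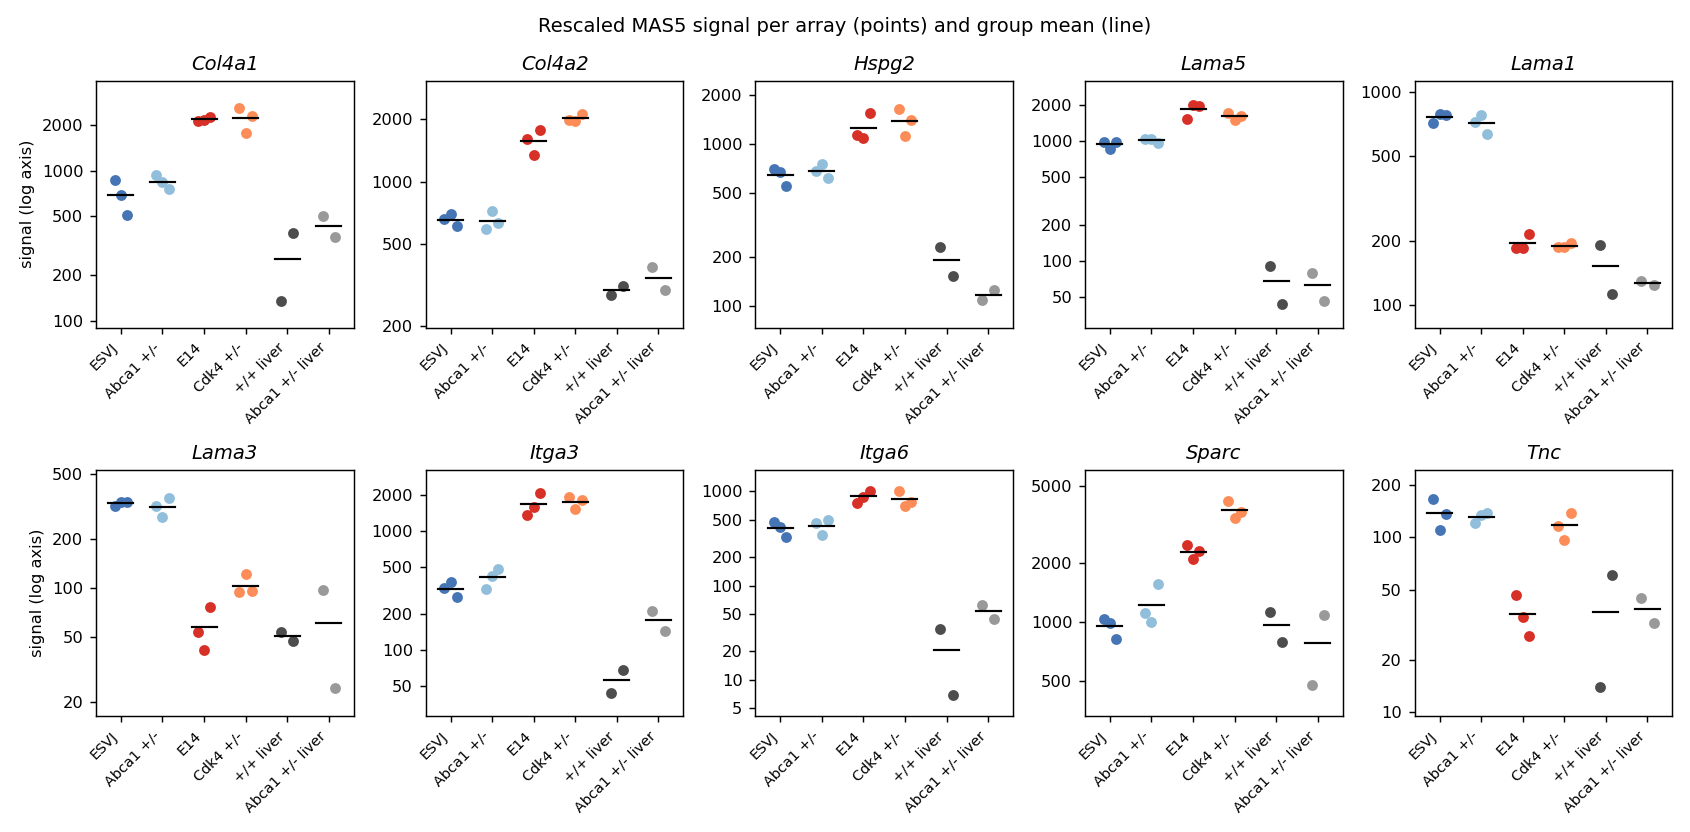
Rescaled MAS5 signal (log axis) of 10 matrix and integrin genes on each array, as points coloured by group, with the group mean as a line. The E14 and Cdk4 +/- arrays lie above the ESVJ and Abca1 +/- arrays for Col4a1, Col4a2, Lama5, Itga3 and Sparc and below them for Lama1 and Lama3, while Tnc is lowest among ES groups in E14.

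E14 was compared with ESVJ to ask how the +/+ lines of the series differ in matrix genes. Matrix and adhesion genes differed widely: 17 of 36 were higher in E14, 8 were lower and 11 did not pass, against a background of 19.8% of 7349 probe sets higher and 22.8% lower. The median difference over the 36 genes was 0.32 and over all probe sets -0.09. The integrin chain Itga3, type IV collagen and the laminin chain Lama5 were among the genes higher in E14, and the laminin chains Lama1 and Lama3 were lower. The Cdk4 +/- line was compared with the Abca1 +/- line on other arrays, with the same contrast of feeder-independent and feeder-grown lines. There 16 genes were higher and 4 lower, against backgrounds of 19.4% and 21.1%. The comparisons share no array, and 19 genes passed both in the same direction (16 higher, 3 lower) and none in opposite directions. Both use the same estimate of each gene's spread, from the fit of all ES groups, so their calls are not independent. These 19 are 76.0% of the calls between the +/+ lines and 95% of those between the mutant lines. Over all probe sets the corresponding shares were 65.1% and 68.4%.

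**Figure D2:**
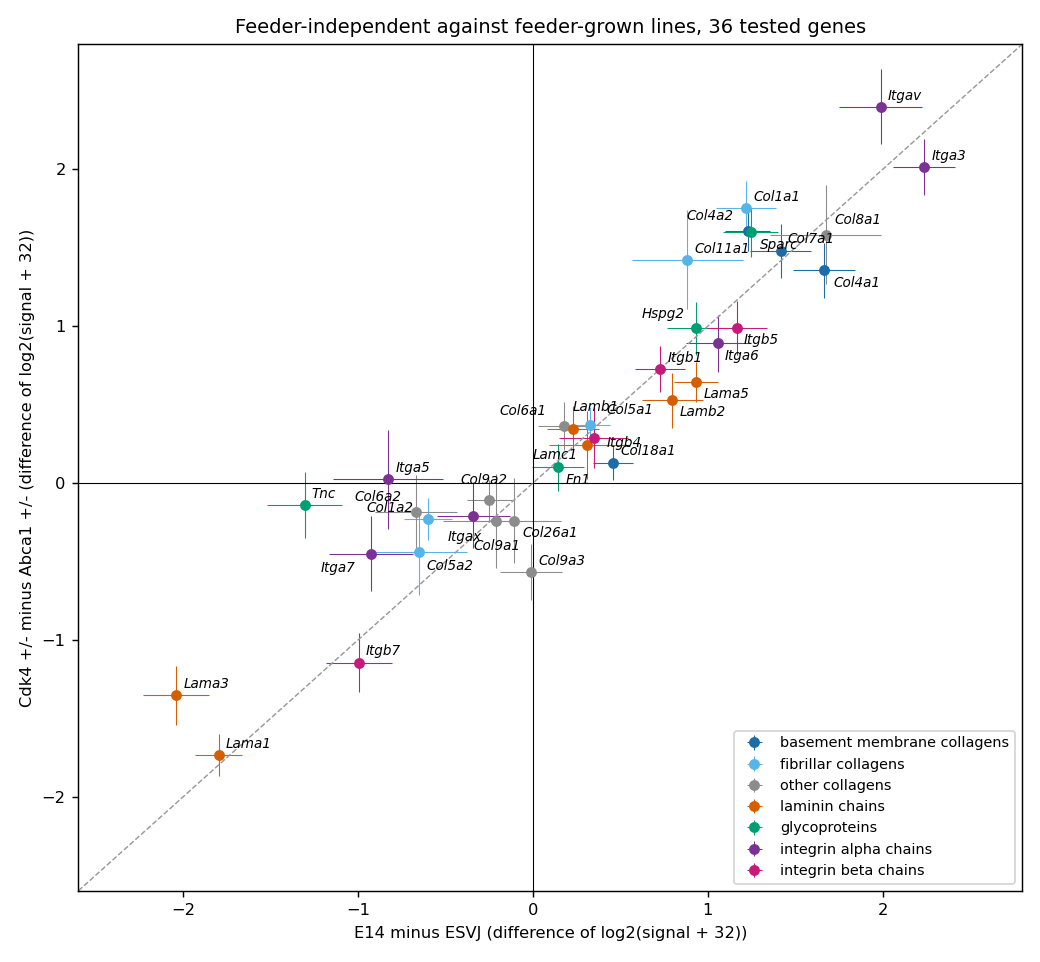
Difference of log2(signal + 32) between E14 and ESVJ (x axis) and between Cdk4 +/- and Abca1 +/- (y axis) for 36 genes, coloured by class, with standard errors as bars and the line of equality dashed. Most genes lie near the line, from Lama1 at -1.80 and -1.73 to Itga3 at 2.24 and 2.02; Tnc lies off it, at -1.31 and -0.14.

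All 4 basement membrane collagens that were tested were higher in E14. Col4a1, the alpha1 chain of the main type IV network, gave signals of 862, 688 and 504 in ESVJ and 2133, 2162 and 2290 in E14. In the mutant lines it gave 942, 837 and 756 in Abca1 +/- and 2624, 1774 and 2297 in Cdk4 +/-. Every feeder-independent array exceeded every feeder-grown one, and E14 exceeded ESVJ by 1.67 (SE 0.177, 3.17-fold, adjusted p = 3e-06). Its partner Col4a2 gave 655, 694 and 606 in ESVJ against 1604, 1346 and 1786 in E14, a difference of 1.23 (SE 0.128, 2.34-fold, adjusted p = 2.43e-06), and 1.61 between the mutant lines. Again no array of one pair of lines reached the other. Between E14 and ESVJ, 80.6% of the 36 genes did not overlap, against 52% of all probe sets. Between the mutant lines the shares were 63.9% and 51.9%. Col7a1, the chain of anchoring fibrils, rose from 305 ± 49.3 to 866 ± 95.3 (SD, n = 3; 1.42, adjusted p = 1.24e-05). Col18a1, the source of endostatin, differed less, at 2013 ± 115 and 2781 ± 162 (SD, n = 3; 0.46, adjusted p = 0.0048), and by 0.13 between the mutant lines, which did not pass. Hspg2, the perlecan core protein of the same membranes, rose from 642 ± 81.3 to 1263 ± 253 (SD, n = 3; 0.93, adjusted p = 4.36e-04).

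Fibrillar collagens did not move as 1 group: 3 of 5 tested were higher in E14 and 1 was lower. Col1a1, the alpha1 chain of type I collagen, gave 313, 431 and 419 in ESVJ and 1005, 876 and 930 in E14, without overlap (1.22, SE 0.173, adjusted p = 5.4e-05). Col1a2, its partner in the type I trimer, went the other way, at 1334 ± 87.6 and 867 ± 28.3 (SD, n = 3; -0.60, adjusted p = 0.00263). That Col1a2 value rests on a probe set marked as open to cross-hybridisation, and the mean of all Col1a2 probe sets did not pass. Col11a1 and Col5a1 differed by 0.88 and 0.33 (adjusted p = 0.0355 and 0.0335). Each of these calls was lost when any of 5 of the 6 arrays was left out, with adjusted p up to 0.149 and 0.105. A further, dimmer Col5a1 probe set differed by 1.07 (adjusted p = 4.95e-04), and by 1.60 between the mutant lines (adjusted p = 1.34e-05). Of 7 other collagens, 1 was higher and 1 lower. Col8a1, a short-chain collagen of subendothelial matrix, was at 110, 109 and 18.3 in ESVJ and 332, 244 and 295 in E14 (1.67, SE 0.316, adjusted p = 6.6e-04). Col8a1 and Col11a1 had means under 100 in both ESVJ and Abca1 +/-. They passed the filter only through the feeder-independent lines, and had to come out higher there. Col6a2, a chain of beaded-filament collagen, was lower by 0.67 (adjusted p = 0.0319) and lost its call without ESVJ replicate 2, ESVJ replicate 3 or E14 replicate 2 (adjusted p up to 0.132).

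Laminin alpha chains, which carry the main integrin-binding sites, differed in opposite directions. Lama5 gave 982, 857 and 974 in ESVJ and 1520, 2001 and 1969 in E14, a difference of 0.93 (SE 0.126, 1.91-fold, adjusted p = 3.47e-05), and 0.65 between the mutant lines. Lama1, the alpha chain of the laminin of early embryonic basement membranes, was lower in E14: 711, 783 and 781 in ESVJ against 185, 186 and 216. Its difference was -1.80 (SE 0.133, adjusted p = 7.57e-08), and between the mutant lines, at 720, 775 and 633 against 188, 188 and 195, it was -1.73. Lama3, the alpha chain of epithelial anchoring laminins, gave 318, 336 and 335 in ESVJ and 53.6, 41.6 and 76.1 in E14 (-2.04, SE 0.188, adjusted p = 6.6e-07). None of these alpha chains overlapped between the pairs of lines, which also held for 52% of all probe sets between E14 and ESVJ. The dimmer alpha chains Lama2 and Lama4, under the filter, overlapped. The beta and gamma chains that complete the trimers differed less. Lamb1 was at 538 ± 32.6 and 636 ± 42.0 and Lamc1 at 644 ± 250 and 761 ± 59.8 (SD, n = 3), and neither passed (differences of 0.23 and 0.31). Lamb2 was higher by 0.80 (adjusted p = 0.00214).

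Among the other glycoproteins, Sparc, a collagen-binding protein of parietal endoderm and remodelling tissue, gave 1044, 990 and 826 in ESVJ and 2479, 2103 and 2308 in E14 (1.25, SE 0.156, 2.37-fold, adjusted p = 1.62e-05). Fn1, fibronectin, was at 1222 ± 106 and 1356 ± 146 (SD, n = 3) and did not pass. Tnc, the anti-adhesive hexamer tenascin-C, gave 166, 110 and 137 in ESVJ and 47.0, 35.3 and 27.2 in E14. Every ESVJ array exceeded every E14 array, by 1.31 on average (SE 0.212, 2.47-fold lower in E14, adjusted p = 1.88e-04). Between the mutant lines Tnc differed by -0.14 (SE 0.212, adjusted p = 0.626).

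Integrin chains showed both directions. Itga3, which pairs with Itgb1 as a receptor for laminins that contain Lama3 or Lama5, gave 328, 371 and 276 in ESVJ and 1345, 1590 and 2065 in E14 (2.24, SE 0.177, 4.72-fold, adjusted p = 1.54e-07), and a further Itga3 probe set differed by 0.77 (1.71-fold). Itga6, a laminin-binding chain with Itgb1 or Itgb4, gave 477, 420 and 331 against 754, 882 and 1013 (1.06, SE 0.183, adjusted p = 3.26e-04). Itgb1, the partner of both, was at 4319 ± 331 and 7162 ± 189 (SD, n = 3; 0.73, adjusted p = 0.00101), while Itgb4 differed by 0.35 and did not pass (adjusted p = 0.167). Itgav, the alpha chain of vitronectin and fibronectin receptors, gave 560, 364 and 944 against 2484, 2088 and 2661 (1.99, adjusted p = 1.04e-05), and its partner Itgb5 rose by 1.17 (adjusted p = 7.4e-05). These last values depend on the probe set: a further probe set for Itgav differed by 0.19 and one for Itgb5 by -0.14. Lower in E14 were Itgb7, a leukocyte homing chain, at 818 ± 155 and 400 ± 122 (SD, n = 3; 1.99-fold lower, adjusted p = 6.92e-04), Itga7, a laminin receptor chain of muscle, by 0.93 (adjusted p = 0.00651), and Itga5, the fibronectin receptor chain, by 0.83 (adjusted p = 0.0462). A further Itga7 probe set passed in the opposite direction, at 0.77. The Itga5 call was lost without E14 replicate 2 or any ESVJ array (adjusted p up to 0.224).

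Genes that build, cut and read the matrix were taken from lists of known function; their counts stand against 19.8% higher and 22.8% lower over all probe sets, and their medians against -0.09. Of 12 tested genes for collagen modification, 3 were higher in E14 and 2 lower (median -0.09). Bmp1, which cleaves procollagen C-propeptides, was at 67.2 in ESVJ and 788 in E14 (difference 3.08), and Serpinh1, the collagen chaperone Hsp47, at 624 and 3097 (2.25). Of 22 other matrix glycoproteins and proteoglycans, 8 were higher and 3 lower (median 0.26), with Npnt, a ligand of integrin alpha8, at 2.98 and the proteoglycan Agrn at 1.43. Of 11 matrix proteases and inhibitors, 7 were higher and none was lower, with 4 not past the threshold (median 0.87); Plat, tissue plasminogen activator, differed by 2.58 and Mmp14, a membrane-bound collagenase, by 1.35. Of 25 integrin adaptors and partner receptors, 14 were higher and none was lower, with 11 not past the threshold (median 0.55). Among them were the focal adhesion protein Vcl, at 1654 in ESVJ and 4128 in E14, and, as differences, the paxillin relative Tgfb1i1 at 2.57, the collagen receptor Ddr1 at 1.93 and Cd47 at 2.35. In the mutant lines the counts were 3 and 2, 8 and 2, 7 and 0, and 15 and 1 for the same lists. The counts include genes whose direction the filter fixed. Bmp1, Npnt, Plat and Cd47 had means under 100 in both ESVJ and Abca1 +/-. They passed the filter only through the feeder-independent lines, and had to come out higher there.

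Markers of other cells moved with this contrast. The sum over 20 fibroblast markers was 3361 to 3651 in ESVJ, 3340 to 3907 in Abca1 +/-, 12620 to 15090 in E14 and 15780 to 17580 in Cdk4 +/-, thus higher in the lines grown without feeders. Of 10 tested, 3 were higher in E14, 1 was lower and 6 did not pass, and 10 of the 20 had a mean under 100 in ESVJ and 11 in E14. Contractile genes carried most of the sum in E14: Tagln was at 1150 in ESVJ and 7484 in E14, and Acta2 at 653 and 4060. Fibroblast transcription factors gave both directions, with Twist1 at 134 and 206, Twist2 at 105 and 192 and Prrx1 at 52.9 and 29.6, as did the surface markers Thy1, at 114 and 47.7, and Pdgfrb, at 25.3 and 39.0. Of 7 tested primitive and parietal endoderm markers, 5 were lower and 1 higher in E14, with the sum over 12 at 2629 to 2702 in ESVJ, 2091 to 2889 in Abca1 +/-, 1635 to 2197 in E14 and 2479 to 2548 in Cdk4 +/-. Gata4 was at 729 and 245 and Cubn at 410 and 53.0 in ESVJ and E14. All 11 ES cell markers were lower in E14 than in ESVJ, whereas between the mutant lines 7 were lower, 2 higher and 2 did not pass. Of 4 bile duct markers tested, the epithelial genes Krt7, Krt19 and Cldn4 were at 20.5, 54.5 and 309 in ESVJ and at 923, 2562 and 5458 in E14, and Epcam, at 449 and 536, did not pass. Krt7 and Krt19 passed the filter only through the feeder-independent lines. The part of these cell states in the matrix differences was not tested, and in bulk RNA fewer cells of a type and less RNA per cell cannot be told apart.

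The Cdk4 +/- line was compared with E14 to ask what the loss of 1 Cdk4 allele goes with. Of 36 genes, 2 were higher, 0 were lower and 34 did not pass, against backgrounds of 2.59% higher and 2.33% lower. Both were glycoproteins, Tnc and Sparc. Tnc gave 47.0, 35.3 and 27.2 in E14 and 117, 97.0 and 138 in Cdk4 +/-, so that the lowest mutant array lay above the highest control array. The difference was 1.13 (SE 0.212, 95% interval 0.67 to 1.58, 2.18-fold, adjusted p = 0.0104). Tnc thereby lay at 117 ± 20.5 in Cdk4 +/-, beside 138 ± 27.9 in ESVJ and 132 ± 8.92 in Abca1 +/- (SD, n = 3 each), which leaves E14 as the low group. With an E14 mean of 36.5, Tnc passed the filter, at 105.8, only through these higher groups. The filter thus favoured a difference from E14, though the call was kept with no filter. A dim further Tnc probe set, under the filter, overlapped, at 15.5, 10.2 and 4.80 in E14 and 29.2, 5.73 and 21.5 in Cdk4 +/-. Sparc gave 2479, 2103 and 2308 in E14 and 4156, 3415 and 3643 in Cdk4 +/-, again without overlap (0.69, SE 0.156, 95% interval 0.36 to 1.02, 1.62-fold, adjusted p = 0.0224). These calls depended on single arrays: without Cdk4 +/- replicate 1 or replicate 3 neither passed, and without E14 replicate 1 or 2 Sparc did not pass (highest adjusted p 0.0621 for Tnc and 0.106 for Sparc). Some markers moved with this contrast too. Of 11 ES cell markers 3 were higher in Cdk4 +/- and 8 did not pass, with Nanog at 4542 and 6888, Klf4 at 1503 and 2614 and Tbx3 at 77.0 and 216. The summed fibroblast and endoderm markers, given above, were higher in Cdk4 +/- than in E14, without overlap between arrays. Such a lack of overlap held for 27.8% of the 36 genes and for 24.9% of all probe sets. Tagln, at 7484 and 9123, and Acta2, at 4060 and 5182, carried most of the fibroblast sum. Of 10 tested fibroblast and 7 tested endoderm markers, 0 passed. The part of these markers in the values of Tnc and Sparc was not tested.

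Of the genes next in order of unadjusted p, Lama3 differed by 0.61 (adjusted p = 0.0763), Col18a1 by -0.37 (0.0767 adjusted p) and Col9a3, a chain of cartilage type IX collagen, by -0.58 (0.0772 adjusted p). Col4a2 was at 1579 ± 221 in E14 and 2026 ± 94.6 in Cdk4 +/- (SD, n = 3), a difference of 0.36 (adjusted p = 0.123). Its partner Col4a1 was at 2195 ± 83.8 and 2232 ± 428 and differed by 0.01. Integrin chains did not pass: Itga3 was at 1667 ± 366 and 1738 ± 205, and Itgb1 at 7162 ± 189 and 8460 ± 674 (SD, n = 3). The 34 genes that did not pass lay between -0.58 and 0.69, and 8 of the 36 (22.2%) had an unadjusted p under 0.05, against 20.8% of all probe sets. None of the genes in the 4 lists of collagen modification, glycoproteins, proteases and integrin adaptors passed here. None passed in the contrast of Abca1 +/- with ESVJ, in the Cdk4 difference minus the Abca1 difference or in the livers.

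**Figure D3:**
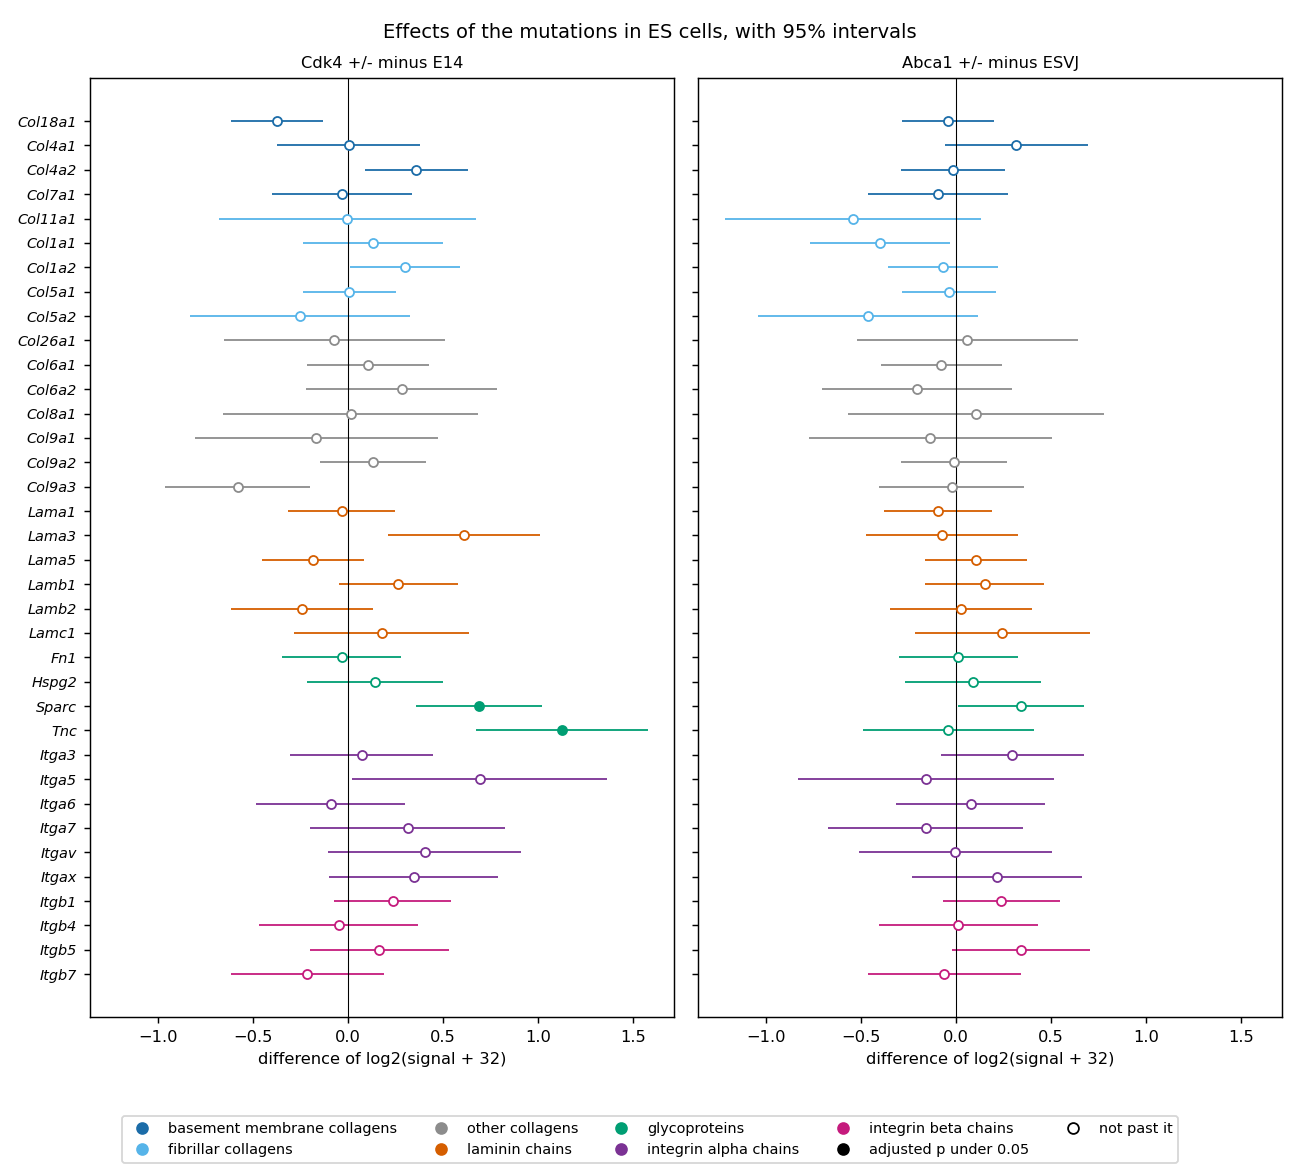
Difference of log2(signal + 32) with its 95% interval for 36 genes, between Cdk4 +/- and E14 (left) and between Abca1 +/- and ESVJ (right), coloured by class; filled points passed adjusted p under 0.05. Tnc at 1.13 and Sparc at 0.69 are filled on the left, and no point is filled on the right.

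In the Abca1 +/- line compared with ESVJ, none of the 36 genes passed in limma's test, against a background of 0.0272% in either direction, and 2 (5.56%) had an unadjusted p under 0.05, against 3.28% of all probe sets. These were Col1a1, at 313, 431 and 419 in ESVJ and 292, 220 and 351 in Abca1 +/- (-0.40, unadjusted p = 0.0348), and Sparc, at 1044, 990 and 826 against 1122, 1004 and 1568 (0.34, unadjusted p = 0.0453). The arrays of the groups overlap for both, and their adjusted p is 0.9997. Differences ran from -0.54 for Col11a1 to 0.34 for Itgb5, and no 95% interval of any gene reached below -1.22 or above 0.78. Among type IV collagen chains, Col4a1 was at 685 ± 179 and 845 ± 93.2 (0.32) and Col4a2 at 652 ± 44.3 and 646 ± 65.5 (SD, n = 3). Among laminin chains, Lama5 was at 937 ± 69.7 and 1010 ± 43.7, Lama1 at 759 ± 41.0 and 710 ± 71.4, and Lamc1 at 644 ± 250 and 726 ± 11.8 (SD, n = 3).

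Whether the mutant lines differed from their control lines to unlike degrees was tested directly, as the Cdk4 difference minus the Abca1 difference. With a single line per genotype, effects of the alleles cannot be told apart from differences between lines. None of the 36 genes passed in limma's test, against a background of 0.626% in either direction, and 4 (11.1%) had an unadjusted p under 0.05, against 15.2% of all probe sets. By the brightest probe set of each gene, Tnc came nearest, at 1.16 (SE 0.30, adjusted p = 0.0901). It rose by 1.13 with Cdk4 +/-, beside -0.04 with Abca1 +/-. The others were Lama3 at 0.69, Col9a3 at -0.56 and Col1a1 at 0.53 (adjusted p = 0.23, 0.309 and 0.313). A further Col1a1 probe set came nearer than Tnc, at 0.79 (adjusted p = 0.0764). The calls for Tnc and Sparc in the Cdk4 contrast are therefore not shown to be particular to that line.

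Livers labelled Abca1 +/- were compared with +/+ livers, with 2 arrays a group. None of the 35 genes passed in limma's test, against a background of 0.014% in either direction, and 5 (14.3%) had an unadjusted p under 0.05, against 18.4% of all probe sets. These 5 are given as values. The highest value was that of Col18a1, abundant in liver as a product of hepatocytes and vessels, at 1248 and 974 in +/+ livers and 4368 and 2664 in livers labelled Abca1 +/- (1.60, SE 0.368, 3.03-fold, adjusted p = 0.113). The other Col18a1 probe sets that passed the filter differed by 1.02 to 1.42, and a dim probe set under the filter had group means of 54.9 and 66.3. The remaining 4 were integrin chains. Itgb5 gave 356 and 492 against 908 and 1046 (1.16, SE 0.340, adjusted p = 0.146), and Itgb1 gave 3138 and 2382 against 7250 and 4505 (1.06, adjusted p = 0.182). Itgav gave 462 and 674 against 1272 and 985 (0.96, adjusted p = 0.199), and Itga3 gave 43.8 and 67.6 against 214 and 144 (1.26, adjusted p = 0.218). The groups do not overlap for any of the 5, but the same holds for 12 of the 35 genes in all (34.3%) and for 51.7% of all probe sets. A further Itgav probe set differed by -0.88 and a further Itga3 probe set by -0.13. For Itgb1 and Itgb5 the further probe sets differed by 0.30 and 0.49.

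The liver with the high 3′ to 5′ ratios bears on these values. Without it, Col18a1 differed by 1.25 (adjusted p = 0.122), Itgb5 by 1.26 (0.120 adjusted p), Itgav by 0.78 (0.294 adjusted p) and Itgb1 by 0.71 (0.347 adjusted p), and Itga3 fell under the filter. Without the other liver labelled Abca1 +/-, so that the array with the high ratios stood alone for its group and only the +/+ livers gave the spread, 22.8% of all probe sets passed, and with them 5 of these genes: Col18a1 at 1.95 (adjusted p = 0.00228), Itgb1 at 1.40 (adjusted p = 0.0143), Itgav at 1.14 (adjusted p = 0.0284), Itgb5 at 1.06 (adjusted p = 0.0359) and Fn1. Leukocyte markers summed to 7327 and 9049 in +/+ livers and to between 9659 and 15830 in the others, endothelial markers to 3535 and 4493 against between 5132 and 5896, and stellate and portal fibroblast markers to 8677 and 9201 against between 6871 and 8329. Dcn carried most of the last sum, with group means of 7379 in +/+ livers and 5814 in the others. Lum, Rgs5 and Hand2 were lower too, while the rest of that list was higher, among them Des at 135 and 217 and Acta2 at 104 and 175. No tested marker passed, of 7 stellate and portal fibroblast (median 0.10), 13 leukocyte and 11 endothelial markers. The part of these cell types in the liver values was not tested. Type IV collagen did not pass: Col4a1 gave 136 and 382 against 502 and 359, and Col4a2 282 and 311 against 387 and 297.

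**Figure D4:**
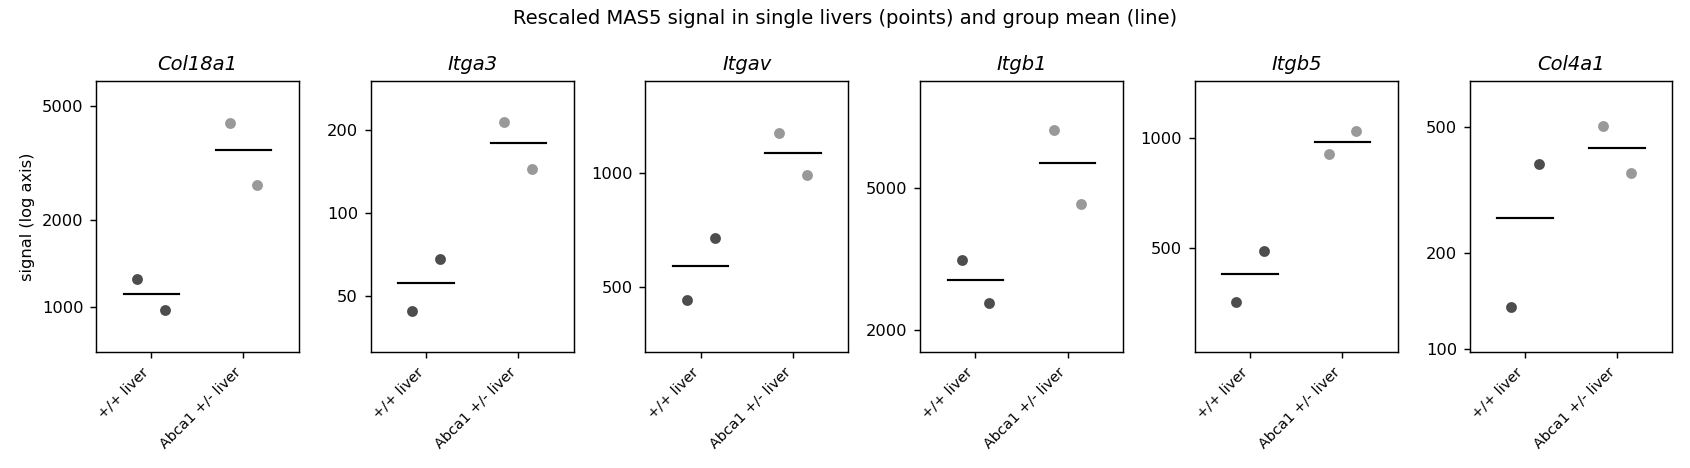
Rescaled MAS5 signal (log axis) in single livers (points), with the group mean as a line, for the 5 genes of unadjusted p under 0.05 and for Col4a1. Both livers labelled Abca1 +/- lie above both +/+ livers for Col18a1, Itga3, Itgav, Itgb1 and Itgb5, and the groups overlap for Col4a1.

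Livers were set against ES cells in the +/+ groups, as the mean of 2 livers minus the mean of ESVJ and E14. Of 38 genes, 9 were higher in liver, 21 were lower and 8 did not pass, against backgrounds of 26.9% higher and 48.9% lower. The median over the 38 genes was -0.68 and over all probe sets -0.43. With quantile normalization, which moved the latter to -0.13, 14 genes were higher and 16 lower of 39 tested. These shares are near the background, so the description is by gene. The filter took its mean over 3 arrays of each ES line and 2 livers. Genes high in ES cells alone could thus pass with dim liver signals, and had to come out lower. Lama5, Itga6 and Itga3, given next, had liver means of 67.5, 20.6 and 55.7. Among the 26 genes left out, Col14a1, at 218, Col6a3, at 168, Itga2 and Itgb2l reached 100 in +/+ livers. Lama5 gave 91.2 and 43.8 in livers, below every ES array (-3.79, SE 0.196, 13.8-fold, adjusted p = 1.35e-09), while a further Lama5 probe set differed by -1.68 (3.19-fold). Itga6 gave 34.4 and 6.83 (-3.63, 12.4-fold, adjusted p = 9.86e-09), and Itga3 43.8 and 67.6 (-3.15, 8.87-fold, adjusted p = 1.12e-08), with a further Itga3 probe set at -1.01 (2.01-fold). All 4 tested basement membrane collagens were lower, among them Col4a1 by 2.25 and Col4a2 by 1.67 (adjusted p = 7.22e-06 and 4.04e-07). Of 7 laminin chains, 6 were lower, with Lamb1 at 106 and 135 in livers (-2.02) and Lamc1 at 446 and 327 (-0.78), and Hspg2 was lower by 2.07. Itgb1 was lower by 1.01, Itgb4 by 1.84 and Itga5 by 2.23.

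Of 6 fibrillar collagens tested, 2 were higher in liver, 2 were lower and 2 did not pass. Col3a1, the chain of reticular fibres, gave 194 and 377 in livers, 49.0, 36.3 and 22.8 in ESVJ and 118, 145 and 92.0 in E14 (1.61, SE 0.280, 3.04-fold, adjusted p = 1.62e-04). Col5a2, a chain of the type V collagen inside larger fibrils, was lower, at 23.5 and 6.76 in livers and group means of 204 in ESVJ and 122 in E14 (-1.99, adjusted p = 6.02e-05). Col1a1 was lower by 0.72 (adjusted p = 0.00193), and its further probe set differed by -3.54. Of 8 other collagens, 3 were higher and 5 did not pass. Col6a2, of the microfibrils around cells, gave 356 and 329 (1.25, 2.38-fold, adjusted p = 2.68e-04), and its partner Col6a1 was higher by 0.66 (adjusted p = 0.00304). Itgax, the CD11c chain of dendritic cells and macrophages, gave 221 and 263 against group means of 118 and 87.5 (1.03, adjusted p = 6.26e-04), and Lama4, the alpha chain of vascular laminins, was higher by 0.86 (adjusted p = 0.0031). Fn1, which hepatocytes secrete into plasma, was higher by 0.46 (adjusted p = 0.0157), and lost its call without +/+ liver replicate 1 (adjusted p = 0.19). Col26a1, Itga7 and Col1a2 were higher by 0.75, 0.62 and 0.50. The calls for Col26a1 and Itga7 were lost without either liver (adjusted p up to 0.217 and 0.114), and that for Col26a1 also without E14 replicate 1. Among genes lower in liver, Itgav and Itgb7 lost their calls without +/+ liver replicate 1, and Lamc1 and Sparc without replicate 2 (adjusted p between 0.0597 and 0.145). Tnc was under the filter of this comparison, at 14 and 60.6 in +/+ livers.

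**Figure D5:**
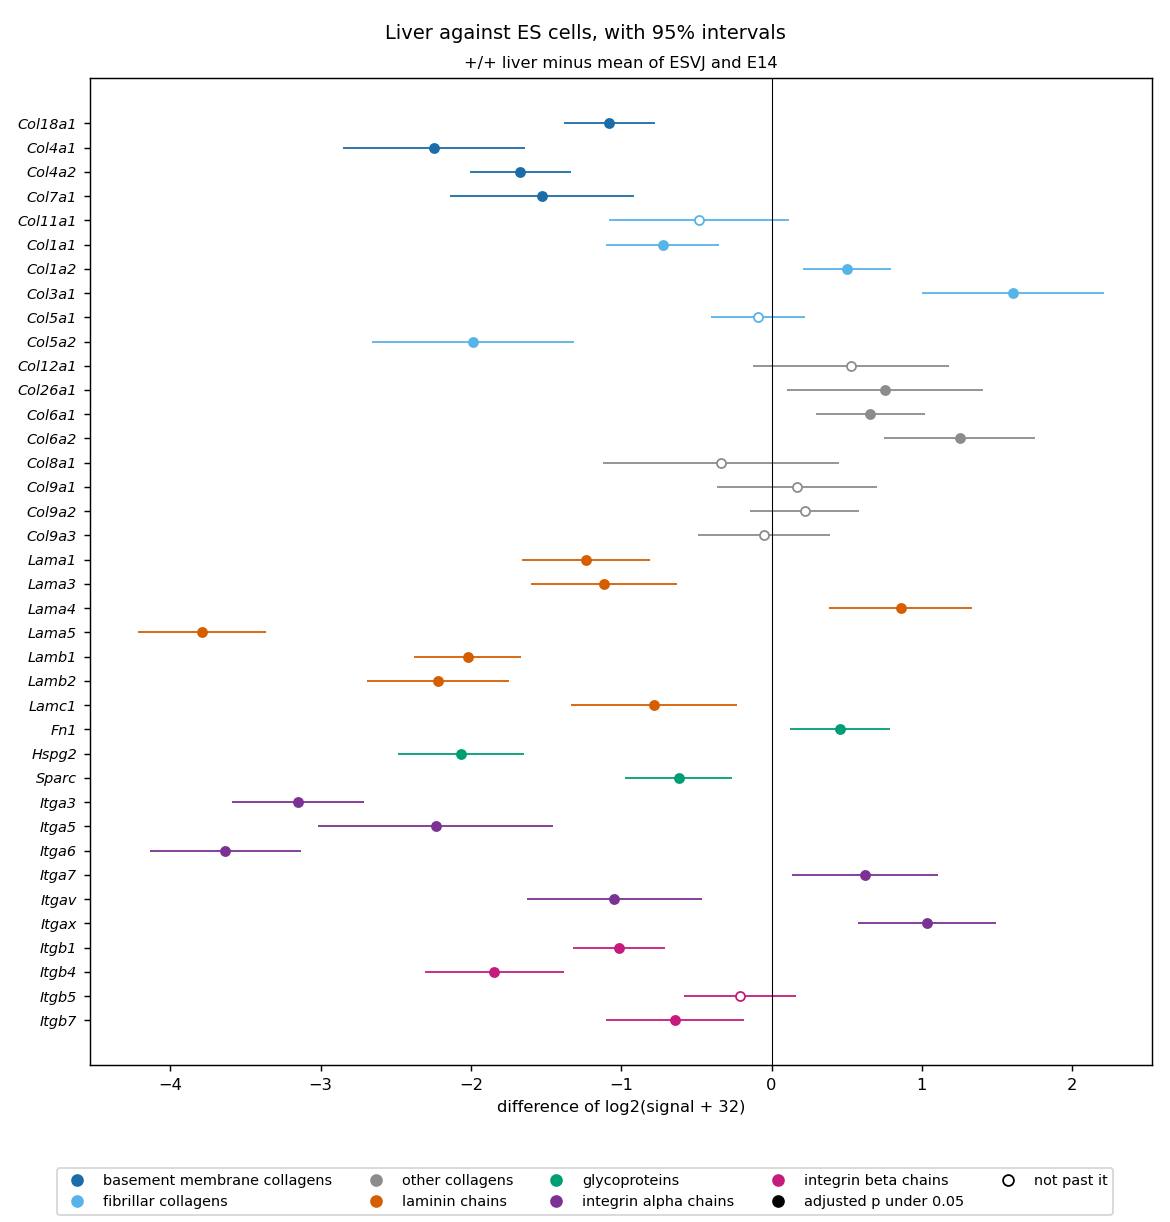
Difference of log2(signal + 32) with its 95% interval between +/+ livers and the mean of ESVJ and E14, for the 38 genes tested, grouped and coloured by class; filled points passed adjusted p under 0.05. Values run from -3.79 for Lama5 to 1.61 for Col3a1, with basement membrane collagens and most laminin and integrin chains below 0.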

How the data were processed

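Total RNA was hybridised to U74Av2 arrays and the authors normalized the data with MAS5.0 at default settings, per the labels; the deposited values are a linear intensity per probe set, already scaled by the authors to a 2% trimmed mean of 1501 to 1502. Values were rescaled to 500, 32 was added and log2 taken. No detection calls were used. Limma 3.58.1 in R 4.3.3 (lmFit and eBayes with an intensity trend) was fitted to the 4 ES groups together (7349 probe sets), to the livers alone (7160) and to the 3 +/+ groups (7802), with Benjamini-Hochberg adjustment over all probe sets of a fit. Genes were named from the platform's probe annotation. The members and lists were chosen with earlier results of these data known. Named with values were Tnc, the brightest member of each class, up to 12 members with the largest rise and 12 with the largest fall past the threshold, the 5 of smallest unadjusted p where fewer than 5 passed, partner chains, and up to 4 genes per list.

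Tested on simulated data, a log2 change of 1 was found in 92% of changed probe sets for Cdk4 +/- against E14, in 2% for the livers and in 82% for liver against ES. Changes were simulated only in probe sets with a mean signal of at least 200, so these shares do not cover dimmer genes such as Tnc. The number of arrays limits precision: the median standard error was 0.175 among ES lines, 0.379 between livers and 0.202 between tissues.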

Additional observations from a re-analysis of the deposited data

How the results depend on the processing

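Alternatives were quantile normalization, pseudocounts of 1 and 100, no filter or a mean signal of at least 200, no intensity trend, all 16 arrays in 1 fit, averaging a gene's probe sets, removal of probe sets marked for cross-hybridisation, and leaving out each array; leaving out the 3 ES arrays with a BioB control signal above 1500 was chosen after seeing the data. The count between Cdk4 +/- and E14 was 2, and was 1 with a mean signal of at least 200, under which Tnc is not tested, and 0 with all 16 arrays, and ranged from 0 to 3 when 1 array was left out. The liver count of 0 became 7 of 38 with all 16 arrays in 1 fit (25.1% of all probe sets), which takes the spread of the livers from that of the ES lines, and ranged from 0 to 5 when 1 array was left out. The other total counts stayed within 1.5 times. By direction, the 9 genes higher in liver than in ES cells became 4 with a mean signal of at least 200, 5 with averaged probe sets, 14 with quantile normalization or no filter, and 6 or 5 without a +/+ liver, and the 8 lower in E14 became 5 with averaged probe sets. Of the genes called, 19 of 25 (E14 against ESVJ), 17 of 20 (Cdk4 +/- against Abca1 +/-) and 20 of 30 (liver against ES) passed in every alternative that tested them. Removal of probe sets marked for cross-hybridisation did not test Lama3 and Itgb1, for which the array has only marked probe sets. It also did not test Itgav, Col1a2 and Lamc1, whose unmarked probe sets were under the filter. One direction reversed: Col1a2 in liver against ES was -0.19 (adjusted p = 0.451) when its probe sets were averaged; the cause was not tested. With 2 livers a group a log2 change of 1 was seldom found, so the liver counts of 0 do not show that these genes did not differ. No paired analysis was possible because the labels give no replicate numbers.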

Other observations

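Matrix genes outside the collagen, laminin and integrin families were compared between +/+ livers and +/+ ES lines, where 26.9% of all probe sets were higher in liver and 48.9% lower. Of 26 tested matrix glycoproteins and proteoglycans, 10 were higher in liver and 11 lower. Vtn, the plasma adhesion protein vitronectin, was at 11.3 in ESVJ, 17.8 in E14 and 12960 in +/+ liver (difference of log2(signal + 32) 8.14, limma adjusted p = 4.83e-12), and Dcn, the collagen-binding proteoglycan decorin, at 52.8, 92.5 and 7379 (6.21, adjusted p = 1.69e-10). Nid2, a nidogen of basement membranes, was at 877, 1652 and 15.2 (-4.71, adjusted p = 8.09e-11). Vtn and Dcn passed the filter only through the livers, and Nid2 only through the ES lines. Their directions were thus fixed by the filter, and the list counts include such genes. Of 26 integrin adaptors and partner receptors, 15 were lower in liver and 2 higher, with the actin-binding proteins Vcl at -4.09 and Actn1 at -4.07. Of 12 matrix proteases and inhibitors 8 were lower and 2 were higher, the lysosomal proteases Ctsb at 2.83 and Ctsl at 1.63. Of 12 genes for collagen modification 6 were lower and 3 higher, with Serpinh1 at -2.12, Pcolce at -2.33 and Ppib at 2.16.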
